A study of Mus musculus with 12 samples.

Results

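The CXC chemokines described here are 10 of the 18193 genes read on the arrays: *Cxcl1*, *Cxcl2*, *Cxcl5*, *Cxcl9*, *Cxcl10*, *Cxcl11*, *Cxcl12*, *Cxcl13*, *Cxcl16* and *Pf4*. They were chosen by name as ligands of the family, and each is represented by its probe set with the highest mean signal over the 12 arrays. Peritoneal macrophages (PMs) of C57BL/6 mice, isolated by lavage and adhesion per the methods, were cultured and transfected with lipofectamine alone, a scramble oligonucleotide or antagomir-21, an antisense oligonucleotide against miR-21. Each transfection was combined with exosomes from sensory neurons, labelled by miR-21 or by a GFP reporter, which gives 6 groups of 2 arrays. The paper describes the former exosomes as overexpressing miR-21. It also states that neurons release miR-21 in exosomes, so the GFP exosomes are not known to lack it. The labels alone name the lipofectamine groups, and these were read as the reagent without oligonucleotide. The methods speak of independently collected triplicates for each condition, whereas the labels name 2 arrays per group. The labels do not say whether the 2 arrays of a group came from separate cultures or animals. The p-values therefore measure only the spread between these arrays. The study asked how neuronal miR-21 acts on macrophages.

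CXC chemokines are small secreted proteins, named for the spacing of their first cysteines, that guide leukocytes through receptors coupled to G proteins. In macrophages the neutrophil-attracting ligands are known to be switched on by NF-κB after microbial or injury signals, and the ligands of CXCR3 by interferons. Others, such as *Cxcl12* and *Cxcl13*, are made constantly by stromal or resident cells and set where leukocytes and B cells settle.

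The mature miR-21 sequence is shown because antagomir-21 binds it and the miR-21 exosomes are described as overexpressing it. It is encoded on the minus strand at chr11:86584120-86584141 (RefSeq, GRCm38.p6), and capitals mark its seed, bases 2 to 8. The promoters of *Cxcl1*, *Cxcl2* and *Cxcl10* are shown because they hold letters of the response elements named above. Each line gives the 250 bases before the RefSeq start site in GRCm38.p6, 5′ to 3′ on the strand of the gene, at chr5:90890995-90891244 (plus strand) for *Cxcl1*, chr5:90903649-90903898 (plus strand) for *Cxcl2* and chr5:92348890-92349139 (minus strand) for *Cxcl10*. Capitals mark matches to the κB consensus and to a core of interferon-stimulated response elements (GAAA, any 2 bases, GAAA), both searched on both strands.
mmu-miR-21a-5p: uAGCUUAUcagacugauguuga
*Cxcl1*: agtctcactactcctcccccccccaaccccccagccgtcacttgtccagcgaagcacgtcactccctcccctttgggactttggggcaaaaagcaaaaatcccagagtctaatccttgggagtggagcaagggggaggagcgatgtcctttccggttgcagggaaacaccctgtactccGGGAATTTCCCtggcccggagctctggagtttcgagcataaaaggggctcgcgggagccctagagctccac
*Cxcl2*: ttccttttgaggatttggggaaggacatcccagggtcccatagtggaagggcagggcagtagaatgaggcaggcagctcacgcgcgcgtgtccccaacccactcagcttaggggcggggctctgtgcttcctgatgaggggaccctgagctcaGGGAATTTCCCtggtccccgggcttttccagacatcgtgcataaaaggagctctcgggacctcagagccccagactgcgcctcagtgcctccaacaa
*Cxcl10*: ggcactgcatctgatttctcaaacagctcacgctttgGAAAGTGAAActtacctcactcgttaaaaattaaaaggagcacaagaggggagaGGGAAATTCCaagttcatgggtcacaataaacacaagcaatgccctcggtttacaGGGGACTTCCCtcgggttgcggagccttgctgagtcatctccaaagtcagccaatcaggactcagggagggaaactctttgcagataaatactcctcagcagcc

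The word GGGAATTTCC stood 71 to 62 bases before the start of *Cxcl1* and 97 to 88 bases before that of *Cxcl2*, and each overlaps a match on the opposite strand. *Cxcl10* held GGGAAATTCC 159 to 150 and GGGGACTTCC 104 to 95 bases before its start, the latter overlapping further matches, and GAAAGTGAAA 213 to 204 bases before it. A κB match was present in 3 of the 7 chemokine promoters found in the RefSeq table, and in 7.25% of all 32851 promoters. The interferon word was present in 1 of 7, and in 2.98% of all promoters. These are matches of letters and not measured sites. In the RefSeq order of genes *Cxcl1* lies next to *Cxcl2*, *Pf4* between *Ppbp* and *Cxcl3*, and *Cxcl9* and *Cxcl10* on either side of *Art3*.

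The arrays had medians of 7.92 to 8.58 on the log2 scale, on which 1 unit is a 2-fold difference. Their upper quartiles were 9.05 to 9.52, but their lower quartiles ranged from 5.28 to 7.04, so low signals were less comparable between arrays. Scramble with miR-21 exosomes replicate 1 had the highest median and the smallest SD (2.04). It was the lowest array of *Cxcl2*, *Cxcl16* and *Pf4*, although *Pf4* stood at the 99.4th percentile of all genes there. All 9 macrophage markers examined, such as *Csf1r* and *Adgre1*, had means above the 95th percentile of 39 olfactory receptor genes, a log2 signal of 8.27 that serves below as a rough mark of genes not expected in macrophages. That mark compares different probe sets and is not a detection limit. Markers of other cells were also read: 3 of 4 measured B cell markers lay above the mark, led by *Ms4a1* with a log2 signal of 12.41 ± 0.81 (SD, n = 12 arrays), as did 4 of 11 mesothelial and fibroblast, 3 of 5 dendritic cell, 2 of 7 neutrophil, 1 of 5 sensory neuron and 0 of 6 megakaryocyte and platelet markers. In such bulk RNA, fewer cells of a type and less RNA per cell cannot be told apart. No scan date or other batch is known for these arrays.

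*Cxcl1*, *Cxcl2*, *Cxcl9*, *Cxcl11*, *Cxcl13*, *Cxcl16* and *Pf4* had means over 12 arrays above the olfactory mark, and *Cxcl5*, *Cxcl10* and *Cxcl12* had means below it. *Pf4* had the highest signal of the family and *Cxcl12* the lowest, at log2 signals of 14.41 ± 0.52 and 6.51 ± 2.30 (SD, n = 12). Signals of different probe sets depend on their probes, so this order is not an order of transcript number. Counted against the same percentile on each array, *Cxcl13* and *Pf4* were above it on 12 arrays, *Cxcl2* on 11, *Cxcl16* on 9, *Cxcl11* on 8, *Cxcl9* on 5, *Cxcl1* on 4, *Cxcl10* and *Cxcl12* on 1 and *Cxcl5* on 0.

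**Figure D1:**
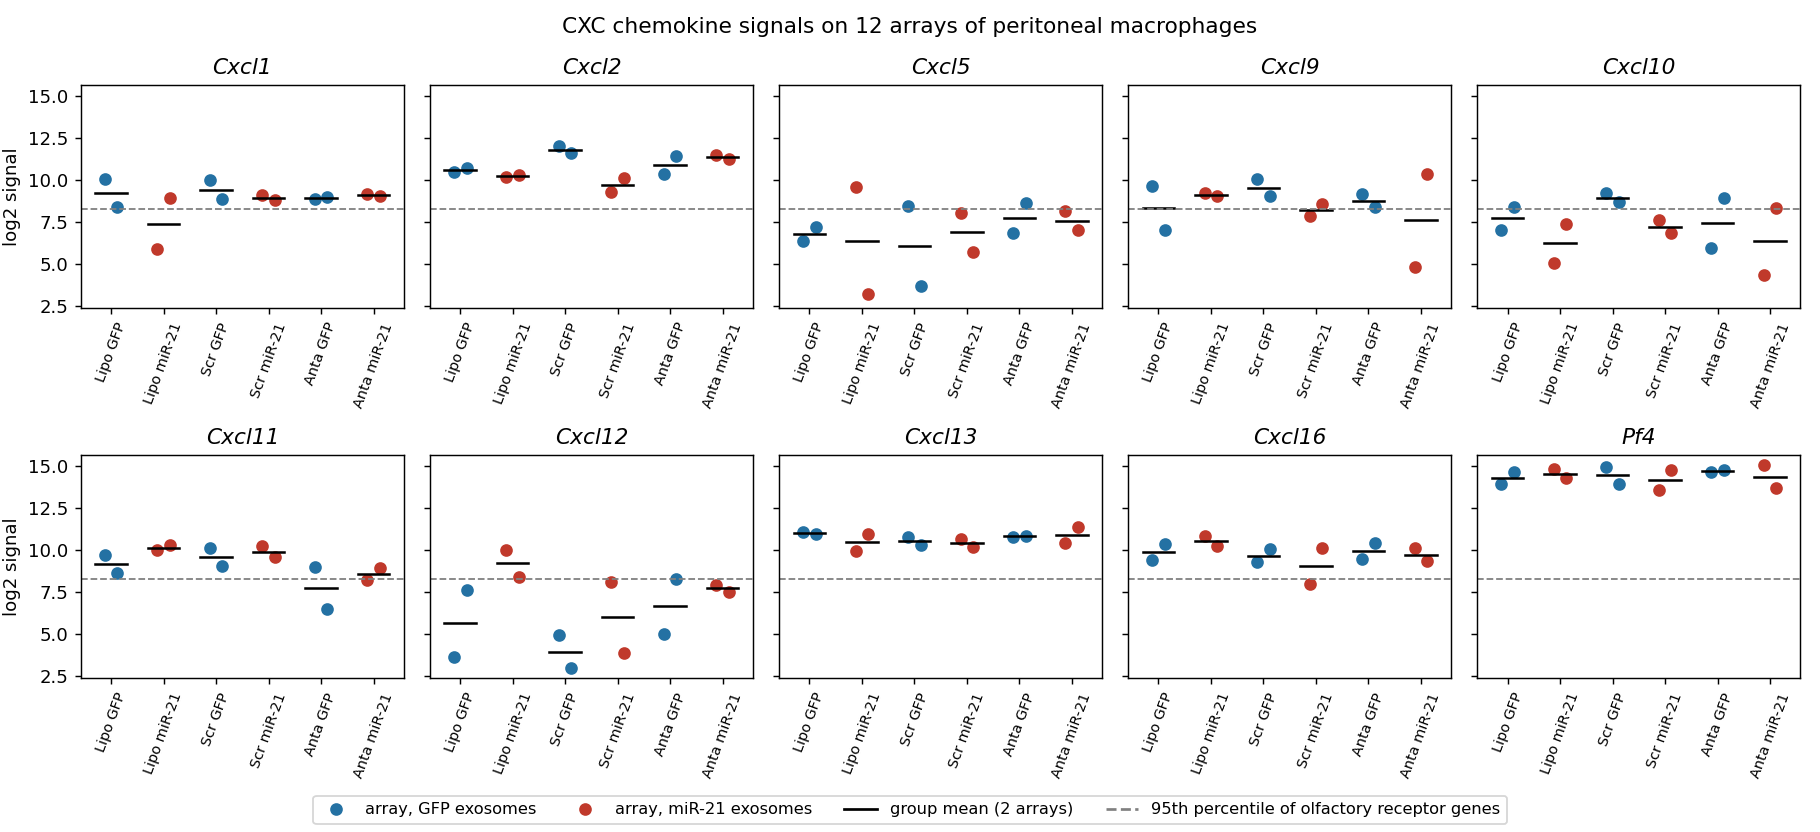
Log2 signal (vertical axis) of the 10 chemokines on 12 arrays, with 1 point per array, blue for GFP and red for miR-21 exosomes, over the 6 groups (Lipo, lipofectamine; Scr, scramble; Anta, antagomir-21), lines at group means of 2 arrays and a dashed line at 8.27, the olfactory mark. *Pf4* stays between 13.57 and 15.04, whereas *Cxcl12* ranges from 2.96 to 10.

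The neutrophil-attracting ligands act on CXCR2. *Cxcl2*, which encodes MIP-2, was read steadily within groups, with a pooled within-group SD of 0.42 against an SD of 0.76 between the 6 group means. With GFP exosomes its log2 signals were 10.45 and 10.72 after lipofectamine, 11.99 and 11.57 after scramble, and 10.35 and 11.41 after antagomir-21. With miR-21 exosomes they were 10.16 and 10.28, 9.29 and 10.09, and 11.47 and 11.24 in the same order. The highest group was thus scramble with GFP exosomes and the lowest scramble with miR-21 exosomes, at means of 11.78 ± 0.30 and 9.69 ± 0.56 (SD, n = 2 each).

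*Cxcl1*, which encodes KC, was at log2 signals of 10.06 and 8.38, 9.98 and 8.83, and 8.86 and 8.96 with GFP exosomes after lipofectamine, scramble and antagomir-21. With miR-21 exosomes it was at 5.85 and 8.91, 9.09 and 8.78, and 9.13 and 9.0. A single array, lipofectamine with miR-21 exosomes replicate 1, lay far below the rest, and the other 11 arrays fell between 8.38 and 10.06. *Cxcl5*, which encodes LIX, ranged from 3.17 to 9.55 with a median of 7.10. Its extremes were the 2 arrays of a single group, lipofectamine with miR-21 exosomes, and its pooled within-group SD of 2.48 exceeded its SD of 0.66 between group means. The order of the 6 groups of *Cxcl5* (means of 6.05 to 7.73) was not resolved, since limma's F test among them had an adjusted p = 0.9999.

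*Cxcl9* and *Cxcl10* encode interferon-induced ligands of CXCR3, which draws activated T cells and NK cells, and *Cxcl11* is named for another such ligand. RefSeq lists *Cxcl11* as a transcribed pseudogene in the C57BL/6J assembly. *Cxcl10* (IP-10) was at log2 signals of 7.02 and 8.36 after lipofectamine, 9.20 and 8.66 after scramble, and 5.94 and 8.90 after antagomir-21 with GFP exosomes. With miR-21 exosomes it was at 5.06 and 7.39, 7.57 and 6.84, and 4.35 and 8.29. Its means were lower with miR-21 than with GFP exosomes after all 3 transfections, and the arrays of the pair overlapped after lipofectamine and after antagomir-21.

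*Cxcl11* (I-TAC) was at log2 signals of 9.69 and 8.61, 10.10 and 9.03, and 8.96 and 6.49 with GFP exosomes after lipofectamine, scramble and antagomir-21. With miR-21 exosomes it was at 9.97 and 10.27, 10.23 and 9.56, and 8.21 and 8.92. The 4 antagomir-21 arrays (6.49 to 8.96) lay below the 4 scramble arrays (9.03 to 10.23), and the share of all genes with such a separation was not counted. *Cxcl9* (MIG) ranged from 4.83 to 10.36 with a median of 9.0, and both extremes were arrays of antagomir-21 with miR-21 exosomes, whose mean was 7.59 ± 3.91 (SD, n = 2). The highest group mean was that of scramble with GFP exosomes in both *Cxcl9* and *Cxcl10* (9.52 and 8.93), and no difference among the 6 groups passed the test in either gene. That group also had the highest mean of *Cxcl1* and *Cxcl2* (9.41 and 11.78). On its replicate 1, 8 of the 10 chemokines lay above their own mean, with a median deviation of 1.04 beside 0.15 for all genes. The count was also 8 on replicate 2 of antagomir-21 with GFP exosomes, with a median deviation of 0.47 beside 0.24.

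*Cxcl12* encodes SDF-1, the CXCR4 ligand that stromal cells make, and *Cxcl13* encodes a CXCR5 ligand that attracts B cells and is known from resident peritoneal macrophages. *Cxcl12* was at log2 signals of 3.62 and 7.63, 4.91 and 2.96, and 5.01 and 8.26 with GFP exosomes after lipofectamine, scramble and antagomir-21. With miR-21 exosomes it was at 10 and 8.39, 8.08 and 3.88, and 7.93 and 7.48. The lipofectamine arrays with miR-21 exosomes were the highest and the scramble arrays with GFP exosomes among the lowest, and each of the other groups but antagomir-21 with miR-21 exosomes held arrays more than 3 log2 units apart. The mean of the 11 mesothelial and fibroblast markers, whose cells make this chemokine, was 7.94, 8.35 and 7.98 with miR-21 exosomes after lipofectamine, scramble and antagomir-21, and 7.68, 7.61 and 7.04 with GFP exosomes, a range of 6.73 to 8.86 over arrays. Of these markers *Dcn*, *Col1a2*, *Col1a1* and *Pdgfra* lay above the olfactory mark, and the fibroblast collagen *Col3a1* and the mesothelial and epithelial *Msln*, *Upk3b*, *Wt1*, *Krt8*, *Krt18* and *Krt19* below it, and their part in the *Cxcl12* signal was not tested.

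*Cxcl13* had the narrowest range of the 10 chemokines, from 9.92 to 11.34 with a median of 10.78. Its group means spanned 10.41 to 10.99, and neighbours in that order did not differ beyond the pooled within-group SD of 0.45. *Cxcl16* encodes the transmembrane ligand of CXCR6, which also takes up oxidized lipoprotein and is released by ADAM10. It ranged from 7.99 to 10.83 with a median of 10.07, and scramble with miR-21 exosomes replicate 1 was the lowest array. *Pf4*, which encodes platelet factor 4 and is also transcribed in tissue-resident macrophages, ranged from 13.57 to 15.04 with a median of 14.64 and stood at the 98.9th to 99.6th percentile of all genes on every array. The 6 measured megakaryocyte and platelet markers, *Ppbp* among them, had a mean between 5.42 and 8.10 on each array, and none lay above the olfactory mark.

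The pooled within-group SD exceeded the SD of the 6 group means in 8 of 10 chemokines and in 83.6% of all genes. Among the chemokines *Cxcl2* and *Cxcl11* (0.89 against 0.90) were the exceptions. The former SD describes single arrays and the latter averages over arrays, which vary less even where groups do not differ. These counts therefore cannot say whether the groups differed. Spread was larger at low signal: among genes of similar mean signal the within-group SD of *Cxcl5* stood at the 94.9th percentile, that of *Cxcl9* at the 85.3rd, that of *Cxcl13* at the 12.7th and that of *Cxcl2* at the 9.8th. The other 6 stood between the 32.3rd and 68.6th percentiles.

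**Figure D2:**
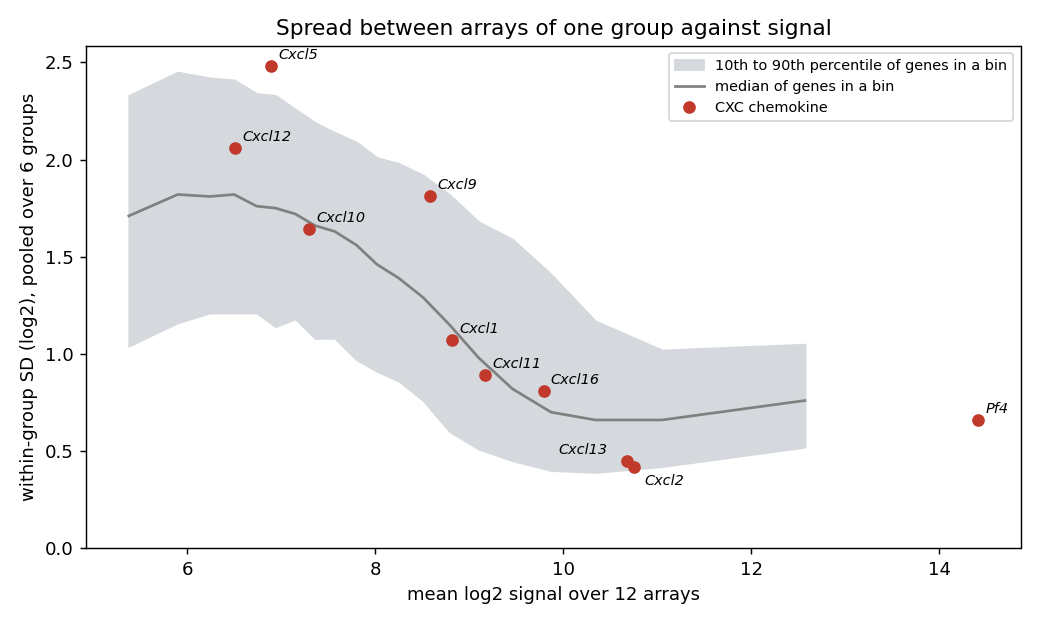
Pooled within-group SD in log2 units (vertical axis) against the mean log2 signal over 12 arrays (horizontal axis) for the 10 chemokines (red), with the median and the 10th to 90th percentile band of all 18193 genes in 20 bins of equal size. *Cxcl5* (2.48) lies above the band, and *Cxcl2* (0.42) and *Cxcl13* (0.45) lie near its lower edge.

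The exosomes were first compared over all 12 arrays, 6 against 6, with transfection as a term. *Cxcl12* was the only chemokine at an unadjusted p under 0.05, a count of 1 of 10 beside 5.36% of all genes, and no chemokine passed the adjusted test. *Cxcl12* averaged a log2 signal of 7.63 ± 2.03 with miR-21 and 5.40 ± 2.13 with GFP exosomes (SD, n = 6 each), a log2 fold change of 2.23 (SE 0.97, 95% CI 0.11 to 4.34, adjusted p = 0.903 from limma), and the 2 sets of arrays overlapped. *Cxcl10* averaged 6.58 ± 1.54 against 8.01 ± 1.26 (SD, n = 6 each), a log2 fold change of −1.43 (SE 0.78, 95% CI −3.12 to 0.26, adjusted p = 0.945 from limma). The log2 fold change was −0.72 (SE 0.63) for *Cxcl1*, −0.66 (SE 0.52) for *Cxcl2* and 0.71 (SE 0.53) for *Cxcl11*. These moved by over 1.5 times with 1 array less: *Cxcl1* to −0.20 or −0.37 without replicate 1 of lipofectamine with miR-21 or GFP exosomes, *Cxcl2* to −0.38 or −0.43 without replicate 1 of scramble with miR-21 or GFP exosomes, and *Cxcl11* to 0.39 without replicate 2 of antagomir-21 with GFP exosomes. The other 5 chemokines lay between −0.58 (*Cxcl9*) and 0.09 (*Cxcl5*), and the median of the 10 was −0.16 beside −0.02 for all genes.

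The *Cxcl12* value depended on the array and on the probe set. Its unadjusted p was over 0.05 without any one of 7 arrays, which were replicate 1 of lipofectamine with GFP (1.56) or miR-21 exosomes (1.86), replicate 2 of lipofectamine with miR-21 exosomes (2.26), scramble with GFP replicate 2 (2.01), antagomir-21 with GFP replicate 1 (1.96), scramble with miR-21 replicate 1 (1.72) and antagomir-21 with miR-21 replicate 1 (2.31). The other 2 probe sets of *Cxcl12*, with mean log2 signals of 6.46 and 5.81 against 6.51 for the chosen one, gave −0.58 (SE 1.01) and 0.58 (SE 1.03). The probe sets of this gene lay a median of 4.03 log2 units apart on the same array. For *Cxcl10* the unadjusted p was under 0.05 when one of 2 antagomir-21 arrays was left out, replicate 2 with miR-21 exosomes (−1.96, adjusted p = 0.710 from limma) or replicate 1 with GFP exosomes (−1.84, adjusted p = 0.930). With each array centred on its median *Cxcl10* was also under 0.05 (−1.64, adjusted p = 0.872) and *Cxcl12* no longer was (2.02), so that the count of 1 then stood for another gene. Over all arrays left out in turn *Cxcl10* ranged from −1.96 to −0.98, the latter without replicate 1 of antagomir-21 with miR-21 exosomes.

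**Figure D3:**
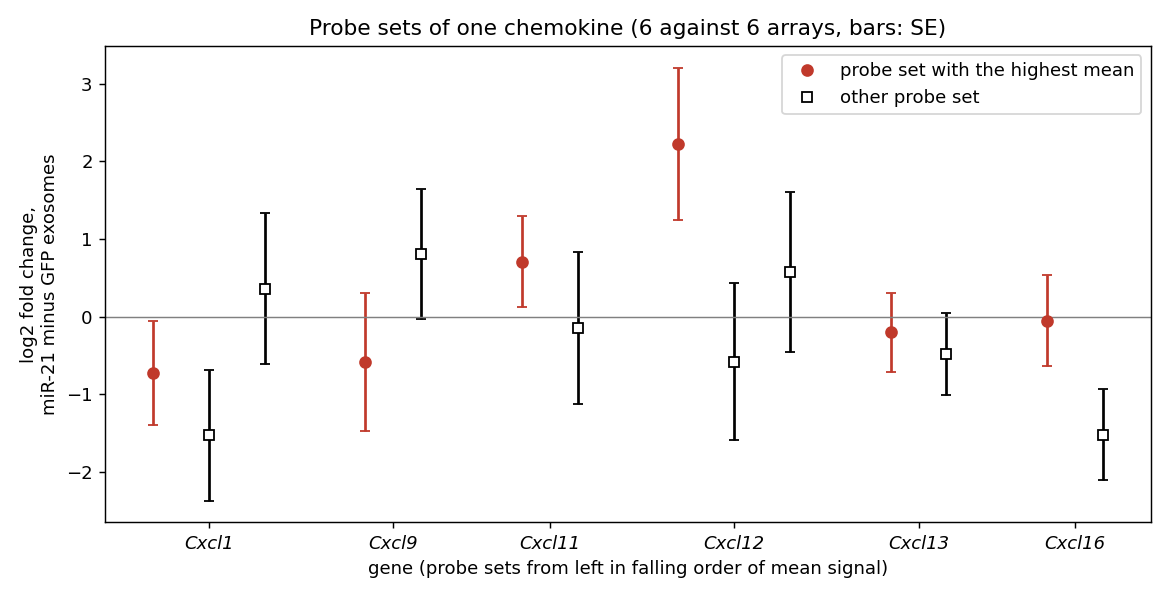
Log2 fold change of miR-21 over GFP exosomes (vertical axis, 6 against 6 arrays, bars show SE) for each probe set of the 6 chemokines read by more than 1 probe set, with red points for the probe set of highest mean and open squares for the others. The 3 probe sets of *Cxcl12* stand at 2.23, −0.58 and 0.58.

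Other chemokines read by several probe sets also differed between them. In *Cxcl16* the chosen probe set gave −0.05 and the other, with a mean log2 signal of 8.31, −1.52 (SE 0.59, adjusted p = 0.809 from limma over all probe sets, unadjusted p under 0.05). The 2 probe sets of *Cxcl13* lay a median of 0.34 log2 units apart on the same array, the closest of the 6 genes, and gave −0.20 and −0.48. *Cxcl9* gave −0.58 and 0.81, *Cxcl11* 0.71 and −0.15, and *Cxcl1* −0.72, −1.53 and 0.36. The direction of *Cxcl1*, *Cxcl9*, *Cxcl11* and *Cxcl12* thus differed between probe sets of one gene.

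Antagomir-21 was compared with scramble over 8 arrays, 4 against 4, with the exosome type as a term. *Cxcl11* had the largest value in the negative direction and *Cxcl12* in the positive one, and 0 of 10 chemokines were at an unadjusted p under 0.05 beside 4.58% of all genes. *Cxcl11* averaged 8.15 ± 1.16 after antagomir-21 and 9.73 ± 0.55 after scramble (SD, n = 4 each), a log2 fold change of −1.58 (SE 0.75, 95% CI −3.28 to 0.11, adjusted p = 0.9996 from limma). It was at −2.03, with an unadjusted p under 0.05, when replicate 1 of antagomir-21 with GFP exosomes was left out, and at −1.04 when replicate 2 of that group was. The other probe set of *Cxcl11* gave −1.45 (SE 1.25), with −2.72 (SE 1.71) for GFP and −0.18 (SE 1.71) for miR-21 exosomes. *Cxcl12* averaged 7.17 ± 1.48 and 4.96 ± 2.23 (SD, n = 4 each), a log2 fold change of 2.21 (SE 1.11, 95% CI −0.30 to 4.73). Its unadjusted p was under 0.05 when replicate 1 of antagomir-21 with GFP exosomes (2.77) or replicate 1 of scramble with miR-21 exosomes (3.15) was left out. The value was 1.47 without replicate 2 of antagomir-21 with GFP exosomes or of scramble with miR-21 exosomes, and the other 2 probe sets gave −0.93 (SE 1.25) and 0.16 (SE 1.2). *Cxcl10* was at −1.20 (SE 1.01) and *Cxcl5* at 1.19 (SE 1.12). With 1 array less *Cxcl10* ranged from −2.05 to −0.47, its extremes without replicates 2 and 1 of antagomir-21 with miR-21 exosomes, and was at −0.54 without replicate 1 of antagomir-21 with GFP exosomes. *Cxcl5* ranged from 0.15 to 2.04, its extremes without replicates 2 and 1 of scramble with GFP exosomes, and was at 0.74 without replicate 2 of antagomir-21 with GFP exosomes. The other 6 lay between −0.67 (*Cxcl9*) and 0.46 (*Cxcl16*), with intervals that all contained 0.

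Scramble was compared with lipofectamine alone over 8 arrays to read what an oligonucleotide does by itself. Again 0 of 10 chemokines were at an unadjusted p under 0.05, beside 4.42% of all genes. *Cxcl12* averaged 4.96 ± 2.23 after scramble and 7.41 ± 2.71 after lipofectamine (SD, n = 4 each), a log2 fold change of −2.45 (SE 1.21, 95% CI −5.21 to 0.30, adjusted p = 0.9999 from limma). The unadjusted p was under 0.05 when replicate 1 of lipofectamine with GFP exosomes (−3.41) or of scramble with miR-21 exosomes (−3.14) was left out. Without replicate 2 of scramble with miR-21 exosomes the value was −1.46, and the other 2 probe sets of the gene gave 1.46 (SE 1.17) and −0.69 (SE 1.2). *Cxcl10* was at 1.11 (SE 0.71), *Cxcl1* at 0.87 (SE 0.84) and *Cxcl16* at −0.84 (SE 0.71). Without replicate 1 of lipofectamine with miR-21 exosomes *Cxcl10* was at 0.67 and *Cxcl1* at 0.12, and without replicate 2 of lipofectamine with miR-21 exosomes or replicate 1 with GFP exosomes *Cxcl1* was at 1.34. *Cxcl16* was at −0.28 without replicate 1 of scramble with miR-21 exosomes. This comparison and the preceding one share the scramble arrays, on which *Cxcl12* had its lowest mean of the 3 transfections.

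**Figure D4:**
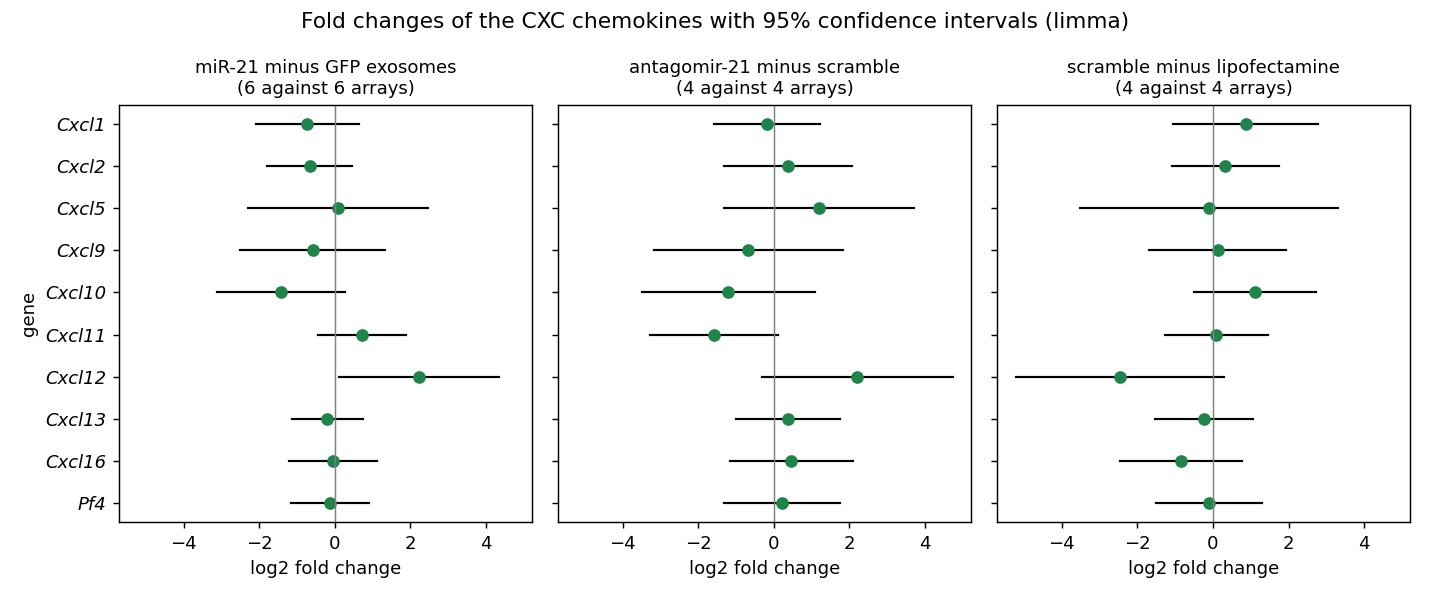
Log2 fold change (horizontal axis) with its 95% confidence interval from limma for each of the 10 chemokines in the 3 comparisons over 12, 8 and 8 arrays. The interval of *Cxcl12* for miR-21 against GFP exosomes (0.11 to 4.34) is the only one of the 30 shown that leaves out 0.

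Within single transfections the exosome comparison rested on 2 against 2 arrays with the spread pooled over all groups. On the chosen probe sets *Cxcl2* after scramble stood out by its unadjusted p, the only chemokine under 0.05 there (1 of 10, beside 5.7% of all genes). Another probe set of *Cxcl1* was also under 0.05 there, at −3.01 (SE 1.27, adjusted p = 0.872 from limma over all probe sets). The chosen probe set of *Cxcl1* gave −0.47 and the remaining one −0.60. *Cxcl2* was lower with miR-21 than with GFP exosomes by a log2 fold change of −2.09 (SE 0.83, 95% CI −3.93 to −0.24, a 4.25-fold difference of signal, adjusted p = 0.810 from limma). After lipofectamine it was at −0.37 (SE 0.83) and after antagomir-21 at 0.47 (SE 0.83). The unadjusted p of the value after scramble was over 0.05 without either scramble array with GFP exosomes (−1.88 without replicate 1 and −2.30 without replicate 2), without replicate 1 of scramble with miR-21 exosomes (−1.69), and without either lipofectamine array with GFP exosomes, which left it at −2.09 and changed only the pooled spread.

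After lipofectamine 0 of 10 chemokines were at an unadjusted p under 0.05 on the chosen probe sets, beside 3.84% of all genes. The other probe set of *Cxcl16* was under 0.05 there, at −2.85 (SE 1.03, adjusted p = 0.9999 from limma over all probe sets). The chosen one gave 0.68. The largest value there was *Cxcl12* at 3.57 (SE 1.75, 95% CI −0.32 to 7.45), or 5.57 with an unadjusted p under 0.05 without replicate 2 of lipofectamine with GFP exosomes and 1.56 without its replicate 1. After antagomir-21 the count on the chosen probe sets was 0 of 10 beside 5.68%. Another probe set of *Cxcl1* was under 0.05 there, at 3.61 (SE 1.36, adjusted p = 0.67 from limma over all probe sets), against 0.15 on the chosen one. Among the chosen probe sets the largest value was *Cxcl9* at −1.17 (SE 1.58). That value was −3.93 (unadjusted p under 0.05) without replicate 2 of antagomir-21 with miR-21 exosomes and 1.60 without its replicate 1. *Cxcl10* was at −1.47, −1.72 and −1.10 and *Cxcl12* at 3.57, 2.04 and 1.07 after lipofectamine, scramble and antagomir-21, with SE of 1.47 and 1.75, and no single value passed limma's test. For *Cxcl12* the sign was shared by the 3 transfections on the chosen probe set alone: the others gave 0.17, −2.36 and 0.45, and −2.11, 2.22 and 1.64.

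**Figure D5:**
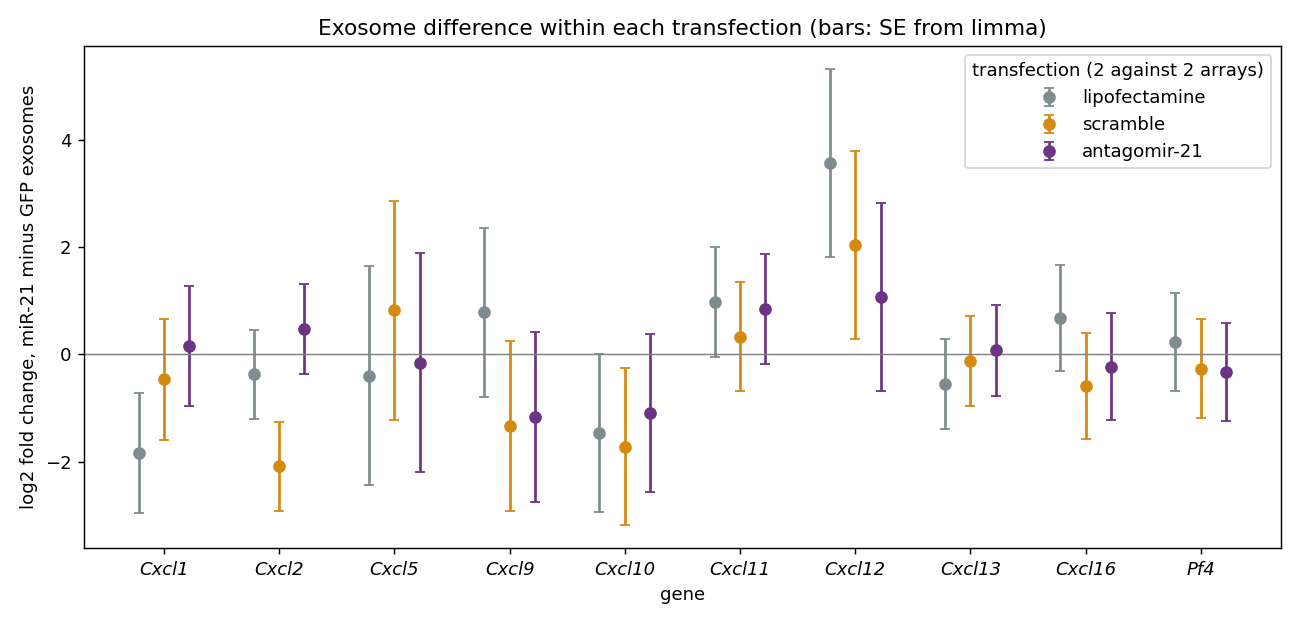
Log2 fold change of miR-21 over GFP exosomes (vertical axis, 2 against 2 arrays, bars show SE from limma) for each chemokine after lipofectamine (grey), scramble (orange) and antagomir-21 (purple). *Cxcl2* stands at −0.37, −2.09 and 0.47, and *Cxcl10* at −1.47, −1.72 and −1.10.

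Antagomir-21 was also set against scramble with each exosome type. With GFP exosomes 0 of 10 chemokines were at an unadjusted p under 0.05 on their chosen probe sets, beside 5.38% of all genes. With miR-21 exosomes the count was 0 of 10 beside 5.3%. On the chosen probe sets the largest value was *Cxcl12* both times, at 2.70 (SE 1.75) and 1.73 (SE 1.75). With GFP exosomes it was 1.08 without replicate 2 and 4.33 without replicate 1 of antagomir-21, and 1.73 without replicate 2 of scramble. With miR-21 exosomes it turned to −0.37 without replicate 2 of scramble and was 3.82 without its replicate 1. The difference between the 2 antagomir-21 effects was tested as an interaction, for which 0 of 10 chemokines were under 0.05 beside 5.36% of all genes. Among the chosen probe sets *Cxcl2* had the smallest p there, with an interaction of 2.56 on the log2 scale (SE 1.17, 95% CI −0.05 to 5.16, adjusted p = 0.935 from limma), or 2.96 without replicate 2 of scramble with miR-21 exosomes. The other 2 probe sets of *Cxcl1* gave interactions of 4.05 (SE 1.80, adjusted p = 0.884 from limma over all probe sets) and 4.21 (SE 1.92), against 0.63 on the chosen one. The former was at an unadjusted p under 0.05. For antagomir-21 over scramble these 2 probe sets gave −1.67 (SE 1.27) and −4.18 (SE 1.36) with GFP exosomes. The value of −4.18 was at an unadjusted p under 0.05 (adjusted p = 0.708 from limma over all probe sets). With miR-21 exosomes the same 2 probe sets gave 2.38 (SE 1.27) and 0.03 (SE 1.36). A moderated F test for any difference among the 6 groups counted 0 of 10 chemokines beside 5.96% of all genes. In order of that p the family ran from *Cxcl12*, *Cxcl2* and *Cxcl11* to *Pf4* at the other end, with adjusted p = 0.9999 from limma for each.

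The receptors and regulators of the family were read as lists. Of 7 measured receptors *Cxcr4*, the receptor of the *Cxcl12* product, alone had a mean above the olfactory mark, at a log2 signal of 12.74 ± 0.80 (SD, n = 12). In the comparisons over 12 and 8 arrays, the 7 receptors counted 0, 1 and 0 at an unadjusted p under 0.05 for the exosomes, antagomir-21 and scramble, beside 5.36%, 4.58% and 4.42% of all genes. The 1 was *Ackr3*, the scavenging receptor of CXCL12, with a log2 fold change of −3.02 (SE 1.04) for antagomir-21 over scramble (adjusted p = 0.951 from limma). *Cxcr3*, the receptor of the interferon-induced ligands, was at 2.01 (SE 0.92) for miR-21 over GFP exosomes and its mean of 7.04 lay below the mark. Of the 5 other ligands measured (*Cxcl3*, *Cxcl14*, *Cxcl15*, *Cxcl17* and *Ppbp*) none was under 0.05 in those comparisons, and *Cxcl15* alone had a mean above the mark.

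Among proteases that shed or trim these ligands 5 of 6 had means above the olfactory mark. *Adam10*, which releases CXCL16 from the membrane, was at a log2 signal of 13.30 ± 0.52, and *Mmp12*, the macrophage elastase, at 14.60 ± 0.61 (SD, n = 12 each). Interferon signalling genes lay above the mark in 9 of 11 and NF-κB genes and early cytokines in 6 of 11. None of the genes of these 3 lists was at an unadjusted p under 0.05 in the comparisons over 12 and 8 arrays. For miR-21 over GFP exosomes the median log2 fold change was −0.19 over proteases, −0.19 over interferon genes and −0.32 over NF-κB genes and cytokines, beside −0.02 for all genes. Negative values were present in 5 of 6, 7 of 11 and 9 of 11 in that order, and 48.99% of all genes had positive ones.

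After scramble, where *Cxcl2* had its lowest p, 1 of 11 interferon genes, 2 of 11 NF-κB genes and early cytokines, 2 of 7 receptors and 1 of 5 other ligands were at an unadjusted p under 0.05 for miR-21 over GFP exosomes, beside 5.7% of all genes. *Irf7*, an interferon-induced transcription factor, had a log2 fold change of −3.27 (SE 1.22), *Il1b* −2.70 (SE 1.16) and *Il1a* 2.55 (SE 1.02), the latter being interleukin-1 genes with opposite signs. *Cxcr2*, the receptor of the CXCL2 protein, was at 3.19 (SE 1.33), *Cxcr5* at 3.18 (SE 1.22) and the ligand gene *Cxcl17* at 3.95 (SE 1.58). None passed the adjusted test (adjusted p of 0.797 to 0.857 from limma). Marker means moved as well between the scramble groups. That of the 4 measured B cell markers, cells that carry CXCR5, was 10.08 with miR-21 and 8.43 with GFP exosomes, and that of the 6 megakaryocyte and platelet markers 7.55 and 6.13. The means were 8.35 and 7.61 for mesothelial and fibroblast, 11.75 and 11.14 for macrophage, 7.51 and 7.43 for neutrophil, 7.92 and 8.33 for dendritic cell and 6.94 and 7.10 for sensory neuron markers. The part of these cells in the scramble values was not tested.

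The likeness of patterns was described by Pearson's r over the 12 arrays against 18192 other genes, with no test, since all points share the same arrays and scaling. The genes most like *Cxcl2* were *4931431B13Rik* (0.869) and *Bet1* (0.862), those most like *Cxcl1* were *Kctd14* (0.949) and *Mier3* (0.930), and those most like *Pf4* were *Sh3kbp1* (0.949) and *Sbf2* (0.948). *Cxcl9* was most like *Mrps14* (0.929) and *Apoa1* (0.911), *Cxcl11* like *Tmod2* (0.935) and *Syn2* (0.913), *Cxcl13* like *Cspp1* (0.903) and *Runx1t1* (0.899), and *Cxcl16* like *Msrb2* (0.928) and *Ms4a6c* (0.923). It was described for the 7 chemokines with means above the olfactory mark, and no other chemokine was among the 2 closest genes of any of these. The highest values between a chemokine of these 7 and another member were *Cxcl1* with *Cxcl13* (0.599) and *Cxcl16* with *Pf4* (0.588), which ranked 1035th to 1588th among all genes, counted from either gene, and the neighbouring *Cxcl2* was not the closest fellow of *Cxcl1*.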

How the data were processed

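PM RNA was hybridized to Affymetrix Mouse 430V2 arrays, and each array's group and replicate number came from its label. The deposited values are log2 signals, 1 per probe set and array. The methods describe RMA with quantile normalization, but the distributions differ between arrays (SD 2.04 to 2.48). The software behind these values and a genome build for the arrays are not given in the sources used here. GEO's platform annotation paired 34945 of 45037 probe sets with a single gene, 932 with several genes and left 9160 unnamed. Gene IDs gave current symbols for 34741. Where a gene had more probe sets, the one with the highest mean over 12 arrays stood for it, and 18193 genes remained. Comparisons were fitted by limma (3.58.1, R 4.3.3; two-sided, Benjamini-Hochberg over 18193 genes), tested on simulated data. Comparisons of 2 against 2 arrays used 6 group means with a pooled spread. Precision is limited by the number of arrays. Arrays were not paired by replicate number, since 15 correlations of deviations between groups ranged from −0.192 to 0.167. These values cannot say whether arrays of one number shared a culture, animal or day, and the labels do not tell. All chemokines were named, with fold changes of 2 against 2 arrays only for those at an unadjusted p under 0.05 or with the largest change, apart from values set side by side. The members and lists were chosen with earlier results of these data known. Alternatives were quantile normalization, median centring, the mean over probe sets, a filter on low signals, a trended robust prior, a replicate block, fits on the compared arrays alone and leaving out each array. Promoters of 7 of the 10 chemokines and the miRNA were taken from RefSeq (GRCm38.p6).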

Additional observations from a re-analysis of the deposited data

Results flagged for a closer look

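The response of *Cxcl2* to antagomir-21 ran in opposite directions with the 2 exosome types, without overlap of arrays either time. Antagomir-21 minus scramble was −0.89 on the log2 scale with GFP exosomes (SE 0.83) and 1.66 with miR-21 exosomes (SE 0.83). The difference between these values, tested as an interaction, was 2.56 (SE 1.17, 95% CI −0.05 to 5.16, adjusted p = 0.935 from limma) and did not pass the test. The same pattern of opposite, separate arrays was present in 1 of 10 chemokines and in 4.43% of 18193 genes.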

How the results depend on the processing

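No chemokine passed an adjusted p under 0.05 under any alternative, and 2 of 196 fits called any gene at all (1 gene at most). Directions depended on the setting for several chemokines, and for *Cxcl12* also at its larger values. For miR-21 over GFP exosomes *Cxcl5* was at −0.12 with median centring, *Pf4* at 0.14 with quantile normalization and *Cxcl9* at 0.12 as the mean over probe sets. The test of each other probe set by itself was added after seeing the data, and turned *Cxcl1* to 0.36, *Cxcl9* to 0.81, *Cxcl11* to −0.15 and *Cxcl12* to −0.58. For antagomir-21 over scramble it turned *Cxcl1* to 0.35, *Cxcl12* to −0.93 and *Cxcl16* to −0.38. For scramble over lipofectamine it turned *Cxcl9* to −0.91, *Cxcl12* to 1.46 and *Cxcl16* to 1.10, the mean over probe sets gave −0.39 for *Cxcl9* and 0.13 for *Cxcl16*, quantile normalization gave 0.30 for *Cxcl5* and median centring −0.03 for *Cxcl11*.

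The count of chemokines at an unadjusted p under 0.05 for the exosomes over 12 arrays was 1, and 0 with quantile normalization, the mean over probe sets or only genes above the median signal (which leaves out *Cxcl12*). With median centring it was again 1, but *Cxcl10* in place of *Cxcl12*. For antagomir-21 over 8 arrays it was 0, and 1 with median centring, the filter or the trended prior. For scramble over lipofectamine it was 0, and 1 with median centring. For exosomes after scramble it was 1, and 0 on the compared arrays alone. For antagomir-21 with miR-21 exosomes it was 0, and 1 with the filter or the trended prior. For the interaction it was 0, and 1 (*Cxcl2*) with quantile normalization, the mean over probe sets, the filter or the trended prior. The cause was not tested. The replicate block left all 10 counts as they were, at 1 for the exosomes over 12 arrays and after scramble and at 0 elsewhere.

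Leaving out each array gave counts of 0 to 2 for the exosomes over 12 arrays and for antagomir-21 over 8, 0 to 1 for scramble over lipofectamine, for each comparison of 2 against 2 arrays and for the interaction, and 0 to 0 for the F test. Directions that turned without some array were, for the exosomes, those of *Cxcl5* (−0.65 to 0.94), *Cxcl9* (−1.20 to 0.19, and −3.93 to 1.60 after antagomir-21), *Cxcl16* (−0.26 to 0.29) and *Pf4* (−0.27 to 0.08). For antagomir-21 they were *Cxcl1* (−0.35 to 0.11), *Cxcl2* (−0.03 to 0.85), *Cxcl9* (−1.79 to 0.42), *Pf4* (−0.05 to 0.50) and *Cxcl12* with miR-21 exosomes (−0.37 to 3.82). For scramble over lipofectamine they were *Cxcl5* (−1.50 to 1.05), *Cxcl9* (−0.60 to 0.48), *Cxcl11* (−0.19 to 0.29) and *Pf4* (−0.36 to 0.19). In antagomir-21 over scramble *Cxcl16* reached 0.00 (0.00 to 0.86).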
